A study of Rattus norvegicus with 4 samples.

Results

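The cells described here were barcodes with the transcript pattern of monocytes that have entered the esophagus of the irradiated rat, and 2850 of the 40724 barcodes that passed filtering in the whole series met the rule. A barcode was a member if it held at least 3 unique molecular identifiers (UMIs, the tags that mark single captured transcripts) of the monocyte genes Fcnb, Plac8 and Vcan together, more than it held of the macrophage complement genes C1qa, C1qb and C1qc. It also had at least 5 UMIs of the myeloid adaptor genes Tyrobp and Fcer1g, no Cd3e (a T cell gene), at most 50 UMIs of the fibroblast genes Col3a1 and Dcn per 10000, and at least as many UMIs of Fcnb, Plac8, Vcan and Ms4a6a as of the neutrophil genes Csf3r, Cxcr2, Il1r2 and G0s2. The rule therefore selected on measured counts, and the levels of those genes are given as a description only.

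Monocytes are made in the bone marrow, circulate in blood and follow chemokines, above all ligands of the receptor CCR2, through activated endothelium into injured tissue. There they lose genes of the circulating state and take up programs of inflammatory cytokine release, clearance of debris, antigen presentation or tissue repair. Many replace or supplement the macrophages that live in the tissue, which in several organs are marked by the C1q genes, Mrc1, Cd163, Folr2 and Lyve1. Ccr2 and Itgam are not analysed here.

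Transcripts of single cells were sequenced from the esophagus of male Sprague-Dawley rats aged 6 weeks, and each of the 4 groups gave 1 library from a pool of 5 animals. In 35Gy_7d the esophageal region was given 35 Gy of X-rays at once and the tissue was taken on day 7. In 5x7Gy_7d and 5x7Gy_14d it was given 7 Gy on each of 5 days, with tissue taken on day 7 or day 14, and in the control 0Gy_7d the 5 fractions were of 0 Gy, with tissue taken on day 7. The labels name no allele or other agent, and all groups shared cold shipment, enzymatic digestion of the whole esophagus and removal of dead cells.

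With 1 pool per group, no difference has a replicate check and no test was made. The 95% intervals given in parentheses reflect the number of UMIs or cells counted and no other source of error. The libraries held 109618791, 59805782, 80574775 and 97207745 UMIs in 35Gy_7d, 5x7Gy_7d, 5x7Gy_14d and 0Gy_7d. Levels are CPM, the UMIs of a gene summed over the cells of a group and scaled to that group's total. Barcode sequences shared by a pair of libraries numbered 26 to 38, and none was a member in both.

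The monocytes were almost all in the single-dose library. There were 2649 members in 35Gy_7d, 146 in 5x7Gy_7d, 48 in 5x7Gy_14d and 7 in 0Gy_7d. They made up 27.2% (26.3 to 28.1) of passing barcodes in 35Gy_7d, 1.61% (1.36 to 1.89) in 5x7Gy_7d, 0.476% (0.351 to 0.631) in 5x7Gy_14d and 0.0592% (0.0238 to 0.122) in 0Gy_7d. The share in 35Gy_7d was 459 times (222 to 1143) that in 0Gy_7d and 16.9 times (14.3 to 20.1) that in 5x7Gy_7d. Of barcodes with the myeloid adaptors, members were 66.1% in 35Gy_7d, 28.0% in 5x7Gy_7d, 4.19% in 5x7Gy_14d and 2.02% in 0Gy_7d. A share of captured cells also moves with the number of other cells that survived irradiation and digestion, and these cannot be told apart.

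In 35Gy_7d the members held the marker Lyz2 above the other kinds of cell given here, while Fcnb, Plac8 and Vcan were selected by the rule. Lyz2, the lysozyme gene of mononuclear phagocytes, which the rule did not use, stood at 17918 CPM in members, 7551 CPM in C1q macrophages, 4844 CPM in neutrophils and 67.7 CPM in non-myeloid cells of that library. At least 1 UMI of Lyz2 was found in 98.6% of members and in 48.1% of non-myeloid cells, whose median depth of 9180 UMIs was above the 4922 UMIs of members. Of the genes in the rule, Fcnb, which encodes a ficolin of monocytes, was at 923 CPM in members and 34.3 CPM in C1q macrophages. Plac8, a gene of inflammatory monocytes and granulocytes, was at 2619 CPM in members and 287 CPM in C1q macrophages. Vcan, which encodes the proteoglycan versican, was at 2248 CPM in members and 557 CPM in C1q macrophages. C1q macrophages had to hold at least as many C1q UMIs as UMIs of Fcnb, Plac8 and Vcan, so these differences follow from the rules. S100a8, an alarmin gene, was at 719 CPM in members, 41348 CPM in neutrophils and 493 CPM in non-myeloid cells. At least 1 UMI of it was found in 56.3% of members and in 45.8% of the deeper non-myeloid cells. S100a8 thus set members little apart from non-myeloid cells, and the part of free RNA was not tested.

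Outside 35Gy_7d many members had other leading genes. The members of all libraries were clustered together, and clusters 0 to 3 of 12 kept Lyz2 at 0.5 times or more of the 17409 CPM of all members, with no list of other cell types raised 3-fold or more. Their cells are called core members. This cut was chosen after the data were seen. Of the 2850 members clustered, 2649 came from 35Gy_7d, so the clusters and the 17409 CPM mostly reflect that library. The core ratios below therefore depend partly on how the core was set. Core members numbered 2158 in 35Gy_7d, 20 in 5x7Gy_7d, 6 in 5x7Gy_14d and 4 in 0Gy_7d, which is 81.5%, 13.7%, 12.5% and 57.1% of the members of each library. Their share of passing barcodes was 22.1% (21.3 to 23.0) in 35Gy_7d, 0.220% (0.135 to 0.340) in 5x7Gy_7d, 0.0595% (0.0218 to 0.130) in 5x7Gy_14d and 0.0338% (0.00922 to 0.0866) in 0Gy_7d. The core share in 35Gy_7d was 654 times (255 to 2404) that in 0Gy_7d and 101 times (65.0 to 165) that in 5x7Gy_7d. The core share in 5x7Gy_7d was 6.51 times (2.18 to 26.2) that in 0Gy_7d, and in 5x7Gy_14d it was 1.76 times (0.417 to 8.47) that in 0Gy_7d, an interval that includes 1.

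The members that were not core differed between libraries in their leading genes. In 5x7Gy_7d, 91 of the 146 members lay in cluster 4, led by RT1-DOa, Mfge8, Tbc1d17 and RT1-Bb, with MHC class II genes among them and Lyz2 at 5715 CPM. Another 13 lay in cluster 7, led by Siglech and Ptcra, and 9 in cluster 8, led by Clec9a and Tlr12. In 5x7Gy_14d, 23 of 48 members lay in cluster 6, led by Tm4sf1, Tagln and Gja4, whose summed endothelial and mural markers were 34.8 and 53.3 times those of the other members. A further 11 lay in cluster 9, led by Nr4a1, Spn and Adgre4, with T and NK cell markers 10.1 times those of the other members. Cluster 9 also had the highest sum of the non-classical monocyte list among the 12 clusters, at 2443 CPM and 2.89 times that of the other members, with Lyz2 at 10530 CPM. It was kept out of the core by the T and NK cell list alone. The stacked bars of cluster shares show these makeups side by side.

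**Figure D1:**
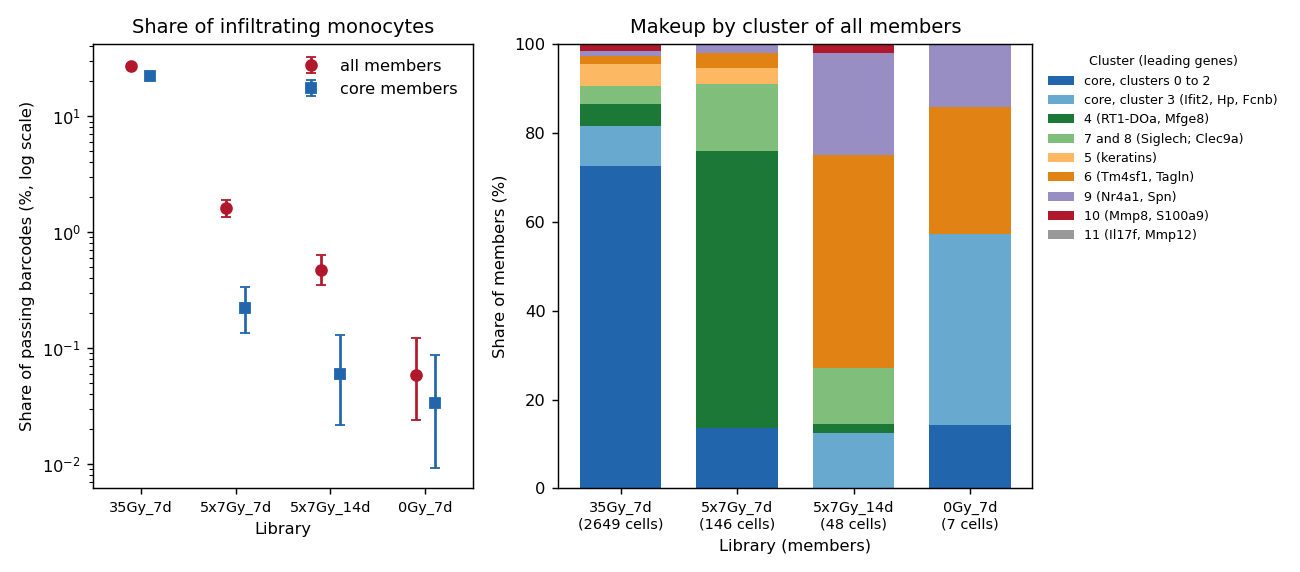
Left, share of passing barcodes (percent, log axis) that were members or core members in each library, with Clopper-Pearson 95% intervals. Right, members of each library split by cluster (percent of members); clusters 0 to 3 are the core and hold 81.5% of members in 35Gy_7d, 13.7% in 5x7Gy_7d, 12.5% in 5x7Gy_14d and 57.1% in 0Gy_7d.

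The few core members of the other libraries resembled those of 35Gy_7d in some genes and not in others. Lyz2 was at 24307 CPM in 35Gy_7d, 21629 CPM in 5x7Gy_7d, 33934 CPM in 5x7Gy_14d and 41003 CPM in 0Gy_7d, and Fn1, which encodes the matrix protein fibronectin, was at 2034, 2458, 3201 and 3018 CPM in the same libraries. Tgfbi, a matrix protein gene induced by TGF-beta, was at 909 CPM in 35Gy_7d and 1160 CPM in 5x7Gy_7d, against 77.1 CPM in 5x7Gy_14d and 46.4 CPM in 0Gy_7d. Slpi, which encodes a secreted inhibitor of leukocyte proteases, was at 9753 CPM in 35Gy_7d, 4917 CPM in 5x7Gy_7d, 1889 CPM in 5x7Gy_14d and 1347 CPM in 0Gy_7d. Tgfbi and Slpi were thus highest in both irradiated day 7 libraries. Cd74, the invariant chain of MHC class II, was at 4291 CPM in 35Gy_7d, 4668 CPM in 5x7Gy_7d, 231 CPM in 5x7Gy_14d and 1393 CPM in 0Gy_7d. Hp, which encodes the hemoglobin scavenger haptoglobin, was at 149 CPM in 35Gy_7d, 55.2 CPM in 5x7Gy_7d, 656 CPM in 5x7Gy_14d and 697 CPM in 0Gy_7d. Hp, like Fcnb at 1261, 580, 4126 and 3947 CPM in that order, stood higher in the day 14 and control cells. By cluster, the 20 core members of 5x7Gy_7d fell as 11, 3, 6 and 0 cells into clusters 0, 1, 2 and 3, while all 6 of 5x7Gy_14d and 3 of the 4 of 0Gy_7d were in cluster 3. In 35Gy_7d these clusters held 801, 568, 555 and 234 core members. These are levels of 20, 6 and 4 cells and their genes entered the clustering, so they carry no comparison beyond the values.

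**Figure D2:**
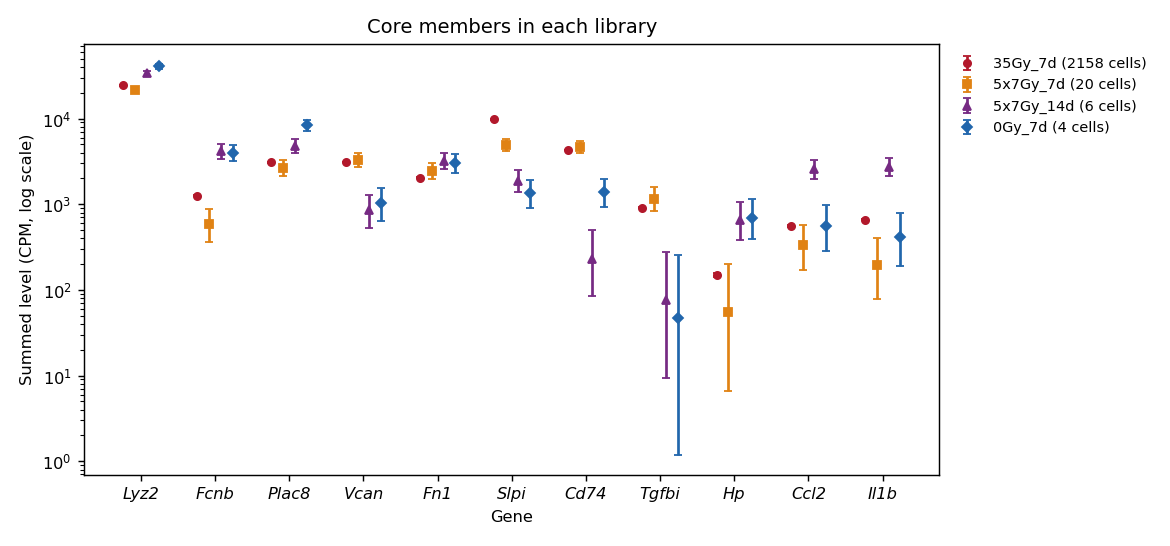
Level of 11 genes (CPM, log axis) in core members of each library, with Poisson 95% intervals that cover counting error. Slpi and Tgfbi were highest in 35Gy_7d and 5x7Gy_7d, and Fcnb and Hp were highest in 5x7Gy_14d and 0Gy_7d, where 6 and 4 cells carry the values.

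In core members of 35Gy_7d the most abundant transcripts were Lyz2, at 24307 CPM, and the actin-binding gene Tmsb4x, at 17492 CPM. They were followed by the ferritin heavy chain gene Fth1, at 16693 CPM, and by Slpi, at 9753 CPM. The antioxidant gene Prdx5 was at 6659 CPM and the calcium-binding gene S100a4, a migration gene of myeloid cells, at 6257 CPM.

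Among themselves, the single-dose monocytes varied in which program they carried. Clustered alone, the 2649 members of 35Gy_7d formed 9 clusters. Clusters 0 to 3 held 885, 845, 236 and 198 cells, 33.4%, 31.9%, 8.91% and 7.47% of members, at median depths of 4400, 4753, 6017 and 4078 UMIs. Every gene entered this clustering, so the differences below describe the clusters and were not tested. Cluster 5, with 126 cells, was led by keratins, and Scrublet marked 67.5% of it as doublets at a median of 19083 UMIs. Cluster 8, with 51 cells, was led by Tm4sf1 and Tagln, with 54.9% marked. Cluster 6, with 60 cells, was led by the neutrophil granule genes Pglyrp1 and Mmp8 and had 9 cells marked. Cluster 4, with 188 cells, was led by Klri1, Slamf7, RT1-DOa and Plet1, and cluster 7, with 60 cells, by Ptcra, Siglech and Spib.

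Clusters 0 and 2 had the highest sums of the inflammatory and matrix lists. The inflammatory cytokine and chemokine list summed to 4641 CPM in cluster 0 and 4574 CPM in cluster 2, which was 1.96 and 1.64 times that of the other members. The matrix and protease list summed to 23393 CPM in cluster 0 and 23987 CPM in cluster 2, which was 1.93 and 1.70 times that of the other members. Ccl2, the chemokine that draws monocytes, was at 820 CPM in cluster 0, 334 CPM in cluster 1, 704 CPM in cluster 2 and 195 CPM in cluster 3. Cxcl3, a neutrophil chemokine, was at 389 CPM in cluster 0 and at 20.7, 152 and 9.63 CPM in clusters 1, 2 and 3, but only 7.91% of the cells of cluster 0 held a UMI of it. Nos2, the inducible nitric oxide synthase gene, was at 82.0 CPM in cluster 0, in 6.44% of its cells, and at 13.01, 11.9 and 6.02 CPM in clusters 1, 2 and 3. Cxcl3 and Nos2 were thus carried by a small minority of cluster 0, whereas Ccl2 was found in 49.9% of it. In the clustering of all libraries, 9 cells of 35Gy_7d formed cluster 11, which was outside the core. It held Cxcl3 at 26931 CPM, Nos2 at 3908 CPM and Lyz2 at 638 CPM. Cluster 0 of that clustering had the cytokine and chemokine list at 3487 CPM, 1.22 times that of the other members. Cells were not matched between the clusterings. Slpi was at 13613 CPM in cluster 0, 7136 CPM in cluster 1, 13848 CPM in cluster 2 and 3443 CPM in cluster 3.

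The MHC class II genes, whose products present antigen to T cells, summed to 20169 CPM in cluster 1 and 12614 CPM in cluster 2, against 764 CPM in cluster 0 and 670 CPM in cluster 3. Those sums were 2.57, 1.14, 0.05 and 0.06 times the sum of all other members in clusters 1, 2, 0 and 3. The highest sum of all was in cluster 4, at 42328 CPM, 4.98 times that of the other members. Cd74 was at 474 CPM in cluster 0, 8325 CPM in cluster 1, 5084 CPM in cluster 2 and 455 CPM in cluster 3. RT1-Da, a class II alpha chain gene, was at 167, 5815, 3826 and 124 CPM in clusters 0 to 3. Clusters 1 and 2 thus held class II genes at more than 10 times the level of clusters 0 and 3. The resident macrophage list summed in cluster 2 to 5.43 times that of the other members. Mrc1, which encodes the mannose receptor, was at 170, 338, 1446 and 38.5 CPM in clusters 0 to 3. Cd163, a hemoglobin scavenger receptor gene, was at 60.1, 102 and 875 CPM in clusters 0, 1 and 2 and at 0 in cluster 3. Apoe, a lipid carrier gene, was at 173, 489, 2718 and 86.7 CPM in clusters 0 to 3. Cluster 2 kept Vcan, at 3770 CPM against 3694 CPM in cluster 0, while its Fcnb was 84.7 CPM against 1569 CPM there.

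Cluster 3 had the highest levels of the genes of circulating monocytes. Lyz2 was at 28555, 21372, 10789 and 42371 CPM in clusters 0 to 3, and Plac8 at 3428, 2683, 617 and 7947 CPM. Hp was at 223, 57.6, 30.4 and 466 CPM. All of them peaked in cluster 3 and were lowest in cluster 2. Vcan went the other way, at 1480 CPM in cluster 3. The p53 target list summed to 2320 CPM in cluster 3 and 1210 CPM in the other members, a ratio of 1.92. Almost all of that difference lay in the antiproliferative gene Btg2, at 1593 CPM in cluster 3 and 501 CPM in the other members. Btg2 is also in the immediate-early and heat shock list, which summed to 1.51 times that of the other members. By cluster, Btg2 was at 583, 548, 288 and 1593 CPM in clusters 0 to 3. The growth arrest gene Gadd45a, which is not in the p53 list, was at 123, 52.7, 25.1 and 368 CPM. The p53 effector Cdkn1a, a cell cycle inhibitor gene, moved less, at 125, 98.7, 74.1 and 187 CPM.

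Among clusters 0 to 3, the interferon-stimulated genes were highest in cluster 3, where they summed to 3117 CPM, 2.74 times the level of the other members. Over all 9 clusters the sum was highest in cluster 6, led by neutrophil granule genes, at 4013 CPM, and cluster 8 held 2671 CPM. Ifit2, an antiviral gene, was at 14.0, 17.4, 5.95 and 273 CPM in clusters 0 to 3, in 30.3% of the cells of cluster 3. Ifit3, a related antiviral gene, was at 13.5, 16.7, 5.29 and 261 CPM, in 27.3% of cells. Cxcl10, a chemokine for activated T cells, was at 9.82, 5.11, 0 and 161 CPM, in 7.58% of cells. These genes were therefore found in a minority of cluster 3. The neutrophils of 35Gy_7d held Ifit3 at 1297 CPM and S100a8 at 41348 CPM. Cluster 3 held S100a8 at 1131 CPM, and its summed neutrophil markers were 2141 CPM against 1708 CPM in the other members; the part of neutrophil RNA in the interferon genes was not tested.

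Promoters of interferon genes that were higher in cluster 3 than in clusters 0 to 2 are printed below to show where the motif of this gene class lies. Searched in the 250 bases before the start of each gene in the RefSeq promoter table (build GRCr8), on both strands, GAAANNGAAA, the core of the interferon-stimulated response element, was present in 13 of the 18 matched genes of the interferon list (72.2%). It was present in 902 of all 27457 promoters (3.29%), in 1 of 16 cytokine and chemokine genes (6.25%), in 1 of 22 glycolysis and hypoxia genes (4.55%) and in none of 8 MHC class II genes. The cytokine and chemokine gene with the motif was Cxcl10, which is also in the interferon list. Of the interferon list, 8 genes reached 20 CPM in cluster 3 and at least 5 times the highest level of clusters 0 to 2, a cut chosen after the values were seen. Of these, 4 had an entry among the promoters and 3 held the motif. Rsad2 was near the cut, at 0.491, 0.929, 0 and 21.7 CPM in clusters 0 to 3. The match, in capitals, lay 147 bases before the start of Rsad2 (chr6:48788121-48788370, minus strand), 243 before that of Cxcl10 (chr14:15988816-15989065, plus strand) and 44 before that of Ifit3 (chr1:241527076-241527325, plus strand). Capitals that read TTTCNNTTTC are the motif on the other strand. A match is a description of the letters in the window and not of a bound factor.
Rsad2: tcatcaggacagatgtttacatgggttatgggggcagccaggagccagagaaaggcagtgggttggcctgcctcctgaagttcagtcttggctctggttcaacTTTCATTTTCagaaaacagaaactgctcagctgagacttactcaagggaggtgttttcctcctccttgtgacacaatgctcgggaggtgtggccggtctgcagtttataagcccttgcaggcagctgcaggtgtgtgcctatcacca
Cxcl10: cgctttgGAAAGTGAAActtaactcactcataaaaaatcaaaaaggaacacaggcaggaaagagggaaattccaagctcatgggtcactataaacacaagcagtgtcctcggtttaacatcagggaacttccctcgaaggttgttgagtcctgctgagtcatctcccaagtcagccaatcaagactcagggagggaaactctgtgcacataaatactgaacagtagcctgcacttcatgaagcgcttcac
Ifit3: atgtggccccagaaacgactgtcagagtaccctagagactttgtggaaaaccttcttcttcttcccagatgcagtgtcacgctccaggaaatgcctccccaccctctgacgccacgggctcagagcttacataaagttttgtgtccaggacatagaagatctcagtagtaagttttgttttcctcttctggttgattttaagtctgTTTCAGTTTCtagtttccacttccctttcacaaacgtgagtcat

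**Figure D3:**
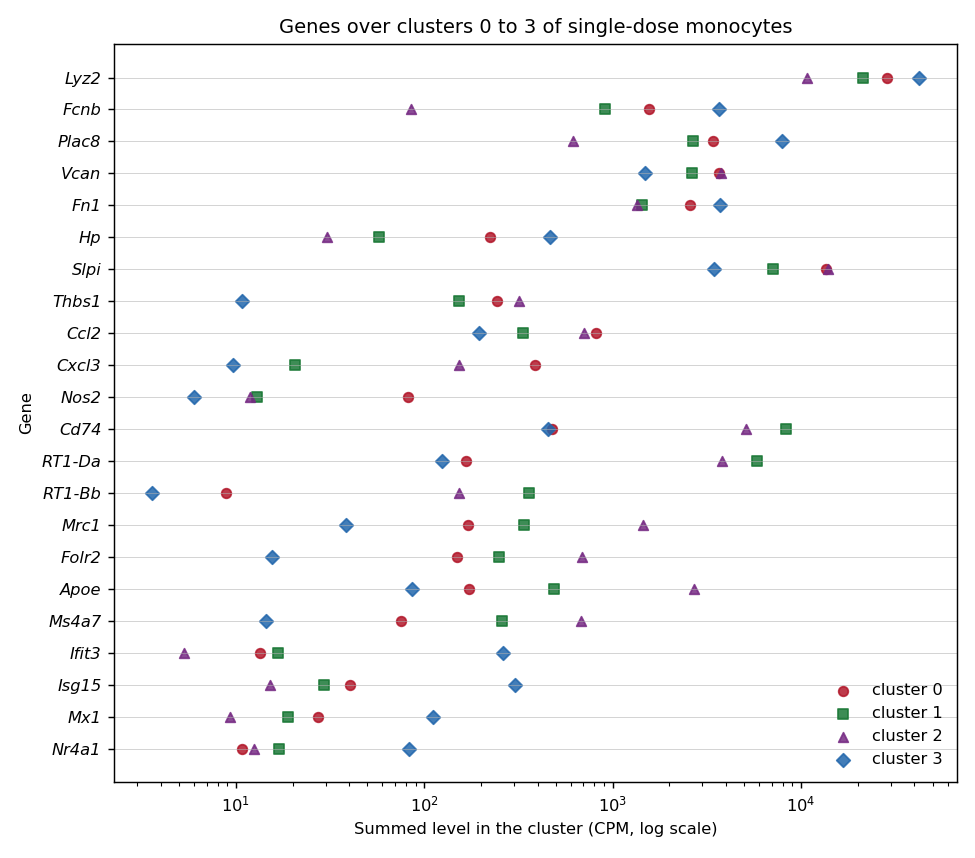
Level (CPM, log axis) of 22 genes in clusters 0 to 3 of the monocytes of 35Gy_7d, 1 marker per cluster. Cd74 and RT1-Da separate clusters 1 and 2 from clusters 0 and 3, Mrc1, Folr2 and Apoe peak in cluster 2, and Fcnb, Plac8 and Ifit3 peak in cluster 3.

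The core members of 35Gy_7d were also split by the C1q genes, which the rule limited to fewer UMIs than the monocyte genes but did not require to be absent. These bins were not matched to the clusters above. Of the core members of 35Gy_7d, 1802 held no C1q UMI, 247 held 1 to 2 and 109 held 3 or more, at median depths of 4510, 5150 and 6849 UMIs. From none to most C1q UMIs, Lyz2 stood at 25812, 20071 and 15074 CPM, Plac8 at 3395, 2224 and 1269 CPM, Fn1 at 2185, 1683 and 976 CPM, and Hp at 168, 96.3 and 28.2 CPM. These genes were thus lower in each step of C1q, but Plac8 is a gene of the rule and Lyz2 was used to set the core. Over the same bins Cd74 stood at 3790, 5165 and 8288 CPM, Apoe at 400, 1296 and 2579 CPM, Mrc1 at 315, 705 and 923 CPM and Ms4a7, a macrophage surface gene, at 151, 395 and 785 CPM. Lyve1, a hyaluronan receptor gene of perivascular macrophages, was at 30.3, 76.9 and 168 CPM. Macrophage genes were higher in each step. Vcan, also a gene of the rule, was lower in each step, at 3191, 3064 and 2361 CPM. Cells with more C1q UMIs were deeper, and free RNA and doublets with macrophages move with the same genes; their part was not tested.

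**Figure D4:**
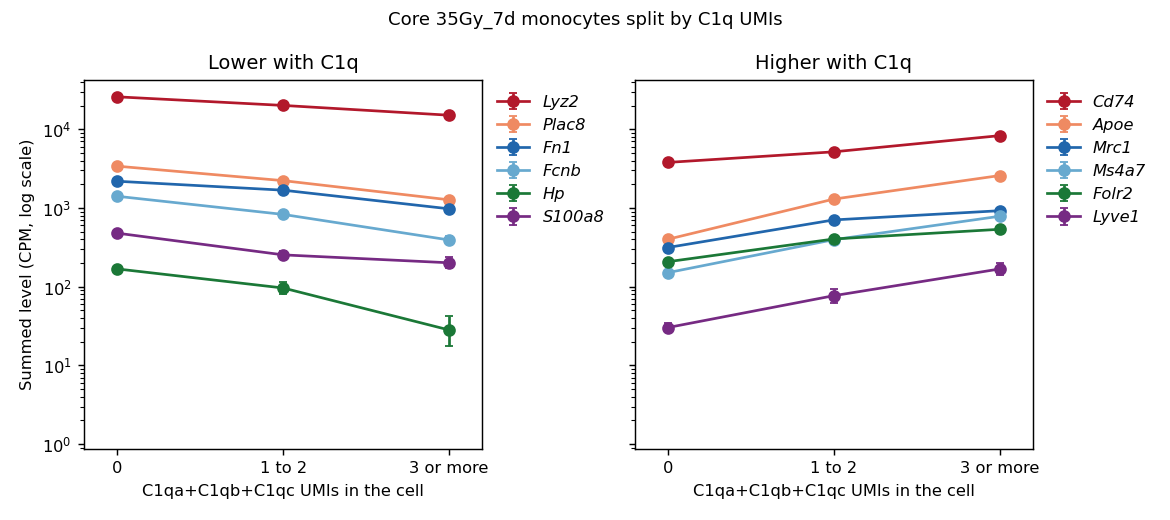
Level (CPM, log axis, with Poisson 95% intervals) in core members of 35Gy_7d with 0, 1 to 2 and 3 or more C1q UMIs. Left, monocyte genes such as Lyz2 and Plac8, the latter a gene of the rule, are lower in each step. Right, macrophage genes such as Apoe, Mrc1 and Ms4a7 are higher in each step.

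Next to the C1q macrophages of the same library, the monocytes of 35Gy_7d had more Fn1, Thbs1 and Slpi and less of the resident macrophage, MHC class II and cell cycle genes. The comparison holds 2649 members and 280 C1q macrophages, and asks what separates the 2 kinds of phagocyte in 1 tissue. Members had to exceed their own C1q counts, so genes that vary with C1q differ partly by the rule, and the values are a description. Of 8522 genes with enough UMIs, monocytes had 409 (4.80%) at 2-fold or more above C1q macrophages and 400 (4.69%) at 2-fold or more below them, with a median log2 ratio over all genes of -0.06. With core members only these counts were 405 and 903.

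Several of the genes that were higher in monocytes encode matrix or adhesion proteins. Fn1 was at 1482 CPM in monocytes and 252 CPM in C1q macrophages, a log2 ratio of 2.55 (2.44 to 2.68). Thbs1, which encodes the adhesive glycoprotein thrombospondin 1, was at 145 CPM in monocytes and 23.4 CPM in C1q macrophages, a log2 ratio of 2.63 (2.24 to 3.05). Slpi was at 7792 CPM in monocytes and 1807 CPM in C1q macrophages, a log2 ratio of 2.11 (2.06 to 2.15). These 3 genes stood apart within their list, since of 20 measured matrix and protease genes 4 were 2-fold higher and 1 was 2-fold lower, with a median log2 ratio of -0.22. Itgb7, an integrin beta chain gene, was at 112 CPM in monocytes and 13.9 CPM in C1q macrophages, a log2 ratio of 3.02 (2.51 to 3.57). Samhd1, a restriction factor gene that degrades deoxynucleotides, was at 84.9 CPM in monocytes and 8.68 CPM in C1q macrophages. Fpr2, a formyl peptide receptor gene, had 111 UMIs in monocytes and 0 in C1q macrophages. With the 0 set to a floor of 3 counts over the group, its ratio was 5.39. Mal, a gene of a membrane lipid raft protein, was at 164 CPM in monocytes and 3.04 CPM in C1q macrophages. Of 16 measured monocyte identity genes, 6 were 2-fold higher and 1, Ms4a7, was 2-fold lower, at 165 CPM in monocytes and 1094 CPM in C1q macrophages.

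On the lower side, 13 of 15 resident macrophage genes and 5 of 8 MHC class II genes were at least 2-fold lower in monocytes and none was 2-fold higher, with median log2 ratios of -1.75 and -1.10. Apoe was at 716 CPM in monocytes and 3601 CPM in C1q macrophages, a log2 ratio of -2.33 (-2.37 to -2.29). F13a1, the coagulation factor XIII gene, was at 12.1 CPM in monocytes and 151 CPM in C1q macrophages, a log2 ratio of -3.63 (-3.90 to -3.38). F13a1 marks circulating monocytes in other settings and lay here with the macrophages. Cd74 was at 4640 CPM in monocytes and 10335 CPM in C1q macrophages, a log2 ratio of -1.16 (-1.18 to -1.13). Pltp, a lipid transfer gene, was at 14.2 CPM in monocytes and 250 CPM in C1q macrophages, and Fcgr3a, an Fc receptor gene, at 5.63 CPM in monocytes and 118 CPM in C1q macrophages. Hpgds, a prostaglandin D synthase gene, had 8 UMIs of 15820058 in monocytes and 74 of 2303512 in C1q macrophages. Trem2, a lipid-sensing receptor gene, was at 6.26 CPM in monocytes and 56.9 CPM in C1q macrophages.

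Between the same cells, response lists had median log2 ratios smaller in size than those of the resident macrophage and MHC class II lists. Over all 8522 genes, 4.8% were 2-fold higher and 4.69% 2-fold lower. The interferon and cytokine lists held a larger share of higher genes than that. Of 20 measured interferon-stimulated genes 8 were 2-fold higher in monocytes and none lower, with a median log2 ratio of 0.58, but Ifit3, at 32.6 CPM in monocytes and 2.60 CPM in C1q macrophages, and Isg15, at 55.6 CPM and 10.4 CPM in the same cells, were both higher in neutrophils, at 1297 and 1188 CPM. Of 22 measured cytokines and chemokines 8 were 2-fold higher and 3 lower, with a median log2 ratio of 0.53. Il1b, the interleukin 1 beta gene, was at 569 CPM in monocytes and 267 CPM in C1q macrophages. The glycolysis and hypoxia list had 3 of 21 genes 2-fold higher and none lower, with a median log2 ratio of 0.57. Its transcription factor Hif1a was at 352 CPM in monocytes and 191 CPM in C1q macrophages, and the glycolytic enzyme gene Hk2 at 206 CPM and 104 CPM. Ccr1, a receptor for CCL3 and CCL5, was at 286 CPM in monocytes and 119 CPM in C1q macrophages. The p53 targets, which respond to DNA damage, had 2 of 16 genes higher and 1 lower, and the NRF2 and glutathione list none of 17 higher and 1 lower. Among chemoattractant receptors 4 of 13 were higher and 1 lower, among pattern recognition genes 5 of 16 and 1, and among lysosome and phagocytosis genes none of 21 and 5.

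Core members gave medians close to those of all members for the resident macrophage list, at -1.79, and for MHC class II, at -1.28. The cell cycle list moved further: 23 of 35 measured genes were 2-fold lower and none higher in all members, with a median log2 ratio of -1.16, and the median in core members was -2.87. Mki67, a proliferation marker, was at 38.0 CPM in monocytes and 127 CPM in C1q macrophages, a log2 ratio of -1.74 (-1.95 to -1.54), and at 6.84 CPM in core members.

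Cells with a proliferation transcript were fewer among monocytes than among C1q macrophages. After thinning each cell to 1000 UMIs, 2.35% (1.80 to 2.997) of members and 1.16% (0.751 to 1.71) of core members in 35Gy_7d held a UMI of Mki67 or Top2a, a DNA topoisomerase gene of dividing cells. The share was 7.64% (4.79 to 11.4) of C1q macrophages and 2.15% (0.870 to 4.39) of mural cells in that library. Without thinning these shares were 9.29%, 6.53%, 21.8% and 10.8%, and 6, 1, 5 and 8 shallower cells were left out by thinning. The intervals of members and of mural cells overlapped, and no cycling was read from a UMI alone.

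**Figure D5:**
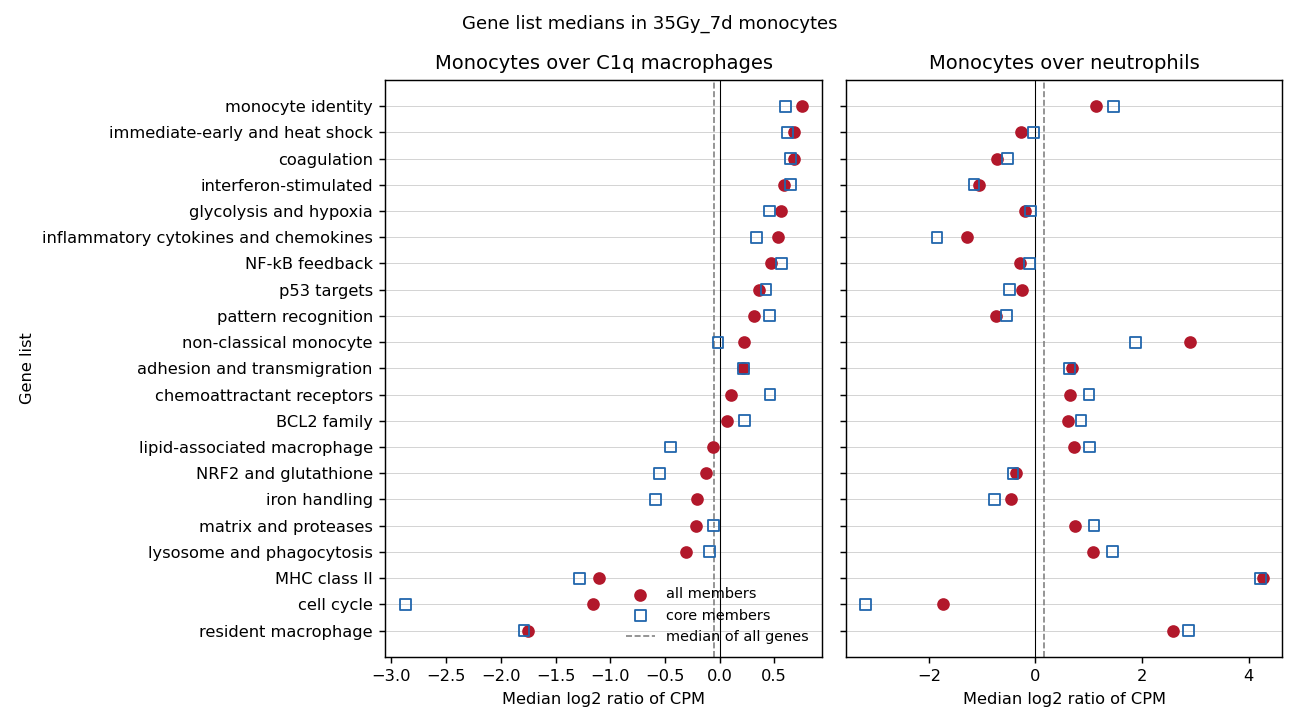
Median log2 ratio of CPM per gene list in 35Gy_7d, monocytes over C1q macrophages and monocytes over neutrophils, for all members (filled circles) and core members (open squares), with the median of all genes as a dashed line. The resident macrophage and MHC class II lists lie at -1.75 and -1.10 against C1q macrophages and at 2.57 and 4.26 against neutrophils.

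Next to the 679 neutrophils of 35Gy_7d, the other myeloid cell that was frequent there, the monocytes summed together had higher MHC class II and lysosomal genes. More interferon-stimulated genes were lower than higher, and the cytokine genes were split. Of 7489 genes, monocytes had 1129 (15.1%) at 2-fold or more above neutrophils and 683 (9.12%) at 2-fold or more below them, with a median log2 ratio over all genes of 0.16. With every cell weighted equally these counts were 2562 and 763. Neutrophils were shallow, at a median of 1072 UMIs per cell, and neutrophil genes had been used by the rule. The ratios are a description.

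All 8 measured MHC class II genes were at least 2-fold higher in monocytes, with a median log2 ratio of 4.26. RT1-Da was at 3094 CPM in monocytes and 157 CPM in neutrophils, and Cd74 at 4640 CPM and 255 CPM. Csf1r, the receptor that keeps mononuclear phagocytes alive, was at 341 CPM in monocytes and 17.7 CPM in neutrophils, a log2 ratio of 4.27 (3.72 to 4.88). Class II genes and Csf1r thus separated the 2 kinds by about the same log2 ratio. Cybb, the catalytic subunit of the phagocyte oxidase, was at 653 CPM in monocytes and 17.7 CPM in neutrophils, a log2 ratio of 5.21 (4.65 to 5.82). Of 19 lysosome and phagocytosis genes 11 were 2-fold higher and none lower, with the lysosomal gene Cd68 at 543 CPM in monocytes and 25.9 CPM in neutrophils. Cd14, the lipopolysaccharide co-receptor gene, was at 498 CPM in monocytes and 55.1 CPM in neutrophils. Tgfbi was at 673 CPM in monocytes and 29.9 CPM in neutrophils, and 10 of 22 matrix and protease genes were 2-fold higher and 4 lower.

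The cytokine list was split. Of 21 measured members 8 were 2-fold higher and 12 were 2-fold lower in monocytes, with a median log2 ratio of -1.27 in all members and -1.85 in core members. Cxcl2, a neutrophil chemokine, was at 227 CPM in monocytes and 2710 CPM in neutrophils, a log2 ratio of -3.58 (-3.64 to -3.51). Il1b was at 569 CPM in monocytes and 2656 CPM in neutrophils, and Nos2 at 29.4 CPM in monocytes and 753 CPM in neutrophils. Cxcl2, Il1b and Nos2 thus took a larger share of transcripts in neutrophils. Ccl2 was at 433 CPM in monocytes, 311 CPM in C1q macrophages, 112 CPM in neutrophils and 242 CPM in non-myeloid cells. Of 19 interferon-stimulated genes 3 were higher and 10 lower, with Ifit3 at 32.6 CPM in monocytes and 1297 CPM in neutrophils, a log2 ratio of -5.31 (-5.46 to -5.17). Mmp8, a granule collagenase gene, was at 4.93 CPM in monocytes and 608 CPM in neutrophils. Slc16a3, a lactate exporter gene, was at 32.9 CPM in monocytes and 221 CPM in neutrophils. Cell cycle genes were 2-fold lower in 19 of 31 and higher in none. After thinning to 1000 UMIs, 4.55% (2.72 to 7.09) of 396 neutrophils held a UMI of Mki67 or Top2a, with 283 shallower cells left out. The part of the deeper neutrophil barcodes in these sums was not tested.

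Between the day 7 schedules, the members of 35Gy_7d and of 5x7Gy_7d were 2 differently composed sets, as 81.5% of the first and 13.7% of the second were core members. Of 4128 genes, the members of 35Gy_7d had 877 (21.2%) at 2-fold or more above those of 5x7Gy_7d and 168 (4.07%) at 2-fold or more below them, and the median log2 ratio over all genes was 0.35. With median-of-ratios scaling, which removes that shift, the counts were 514 higher and 366 lower. With 20 core members in 5x7Gy_7d, below the 50 cells asked for, the core was not compared.

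The MHC class II genes were lower in the members of 35Gy_7d, with all 5 measured genes at least 2-fold lower and a median log2 ratio of -1.47. Cd74 was at 4640 CPM in 35Gy_7d and 12624 CPM in 5x7Gy_7d, and RT1-Bb, a class II beta chain gene, at 189 CPM and 2338 CPM, a log2 ratio of -3.63 (-3.73 to -3.52). Cluster 4 of all libraries, led by class II genes, held 91 of the 146 members of 5x7Gy_7d and 133 of the 2649 members of 35Gy_7d. Lyz2 was at 17918 CPM in members of 35Gy_7d and 4901 CPM in those of 5x7Gy_7d.

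Most lists were higher in the members of 35Gy_7d. Only MHC class II and adhesion and transmigration, at 0.14, had a median log2 ratio below the 0.35 of all genes. The shift was thus broad between these differently composed sets, and the lists below are examples. Of 15 measured immediate-early and heat shock genes 13 were at least 2-fold higher and none lower, of 17 cytokines and chemokines 14 and none, of 12 lipid-associated macrophage genes 10 and none, and of 16 glycolysis and hypoxia genes 12 and none. Fos, an immediate-early transcription factor gene, was at 860 CPM in the members of 35Gy_7d and 21.3 CPM in those of 5x7Gy_7d, a log2 ratio of 5.33 (4.41 to 6.46). Fos was also low in the other cells of 5x7Gy_7d, at 17.8 CPM in C1q macrophages and 7.61 CPM in non-myeloid cells, against 9608 CPM and 7730 CPM in the same cells of 0Gy_7d. Dusp1, a phosphatase gene of the same response, was at 380 CPM in the members of 35Gy_7d and 21.3 CPM in those of 5x7Gy_7d, and at 40.6 CPM in the C1q macrophages of 5x7Gy_7d. Fos and Dusp1 were thus low in every kind of cell given here for 5x7Gy_7d, and the part of tissue handling was not tested. Prdx5 was at 4924 CPM in 35Gy_7d and 573 CPM in 5x7Gy_7d, a log2 ratio of 3.10 (2.92 to 3.29). Fcgr2a, an Fc receptor gene, was at 711 CPM in 35Gy_7d and 56.9 CPM in 5x7Gy_7d. Cst3, the cystatin C gene, was lower, at 648 CPM in 35Gy_7d and 3921 CPM in 5x7Gy_7d. Spp1, the osteopontin gene, and the neutrophil chemokine genes Cxcl1, Cxcl2 and Cxcl3 had no UMI in the 146 members of 5x7Gy_7d. With the 0 set to a floor of 3 counts over the group, Cxcl2 had a ratio of 32.0, at 227 CPM in 35Gy_7d.

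Within 5x7Gy_7d, the 146 members and 155 C1q macrophages were compared over 3864 genes, of which 223 (5.77%) were 2-fold or more higher in members and 368 (9.52%) were 2-fold or more lower, with a median log2 ratio of -0.10. Of 11 resident macrophage genes 9 were 2-fold lower and none higher, with a median log2 ratio of -1.90, close to the -1.75 of 35Gy_7d. Of 8 MHC class II genes 1 was higher and 1 lower, with a median of -0.37, whereas in 35Gy_7d 5 of 8 were lower. Slpi was at 1111 CPM in members and 7.62 CPM in C1q macrophages, a log2 ratio of 7.19 (5.63 to 9.47). Siglech and Ptcra, known in mouse as genes of plasmacytoid dendritic cells, had 51 and 47 UMIs in members and 0 in C1q macrophages, and led the 13 members of cluster 7. Ms4a7 was at 11.8 CPM in members and 566 CPM in C1q macrophages. No test was made of the difference between the libraries.

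At the edge of the rule, the 41 barcodes of 35Gy_7d with exactly 3 UMIs of Fcnb, Plac8 and Vcan had Lyz2 at 4781 CPM, Cd74 at 10585 CPM and Fn1 at 290 CPM. The 33 barcodes just outside, with 2 UMIs, had Lyz2 at 590 CPM, Cd74 at 1636 CPM and Fn1 at 30.6 CPM. In 35Gy_7d, 2383 of the 2649 members held more than 10 UMIs of the 3 genes and 96 held 3 to 5. In 5x7Gy_7d, 68 of the 146 members held only 3 to 5. The median was 30 UMIs in 35Gy_7d, 6 in 5x7Gy_7d, 7 in 5x7Gy_14d and 28 in 0Gy_7d. In 5x7Gy_7d the 20 barcodes just inside had Lyz2 at 3682 CPM and the 35 just outside at 3364 CPM, so the edge did not separate Lyz2 levels there.

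Markers of other cell types were found in the members of 35Gy_7d at various levels. Summed neutrophil markers were 1731 CPM in members, 1111 CPM in core members and 99490 CPM in neutrophils. Summed epithelial markers were 1868 CPM in members, 397 CPM in core members and 10019 CPM in epithelial cells. Dendritic markers were 445 CPM in members, with all 11 detected, and 464 CPM in core members. Fibroblast markers were 260 CPM in members, 251 CPM in core members and 29499 CPM in fibroblasts. Barcodes left out for more than 20% mitochondrial UMIs were 15.2% of those deposited in 35Gy_7d, 16.6% in 5x7Gy_7d, 3.71% in 5x7Gy_14d and 5.49% in 0Gy_7d.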

How the data were processed

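Dissociated esophagus of pooled rats, 1 library per group of 5 animals, was captured with 10x Chromium 3' v3.1 chemistry, per the labels' protocols. For each library the authors deposited a matrix of UMI counts that were not normalized, over 32623 features. Cell Ranger 5.0.0 was used, per the submitters' processing notes, which list mRatBN7.2 as well as rn7 as builds. The release of the gene annotation was not given in the sources used here.

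Barcodes with at least 500 UMIs and at most 20% mitochondrial UMIs were kept. UMI counts were summed per library and cell kind as CPM, and ratios of CPM have exact conditional binomial 95% intervals. A gene entered a comparison if 10 UMIs were expected in the smaller side, and a side with 0 UMIs was set to 3 counts. C1q macrophages, neutrophils and non-myeloid cells were set by like rules on marker UMIs. A gene called 2-fold was called by its ratio alone, with no p-value, since there is 1 library per group. Shares have Clopper-Pearson 95% intervals. The 10 genes with the largest ratio per direction, ranked by the interval bound nearest to 1, were eligible to be named if their CPM reached 0.5 times the highest CPM of any other kind of at least 100 cells, as were up to 4 members per list; Il1b, Ccl2 and the genes of the cluster and core descriptions were chosen after their values were seen. Of 483 listed symbols 29 matched no feature and were not analysed here.

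Doublets were called with Scrublet in scanpy 1.11.5 (numpy 2.4.6, scipy 1.17.1, pandas 2.3.3, python 3.11.15) and kept in the main values. It marked 3.12%, 2.25%, 4.18% and 3.93% of passing barcodes in 35Gy_7d, 5x7Gy_7d, 5x7Gy_14d and 0Gy_7d. Clusters came from 1500 variable genes, 20 components, 15 neighbours and the Leiden method at resolution 0.5. The script that forms the ratios and intervals was checked on simulated counts with known folds, which is no test of the data. The members and gene lists were chosen with earlier results of these data known, and the clustering of all libraries, the core members and the choice of promoters were chosen after the data were seen. RefSeq promoters were matched by symbol. Results for some genes are not reported here. The closing section gives the alternatives tried.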

Additional observations from a re-analysis of the deposited data

Results flagged for a closer look

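Barcodes left out for more than 20% mitochondrial UMIs also held the monocyte pattern. In 35Gy_7d, 84 of the 1744 such barcodes, 4.82% (Clopper-Pearson 3.86 to 5.93), met the rest of the rule, against 0 of 687 in 0Gy_7d, a count that allows a share of up to 0.536%. The signal was picked out because it lies in data outside the comparisons and above the control level. In 5x7Gy_7d the share was 0.111%, and in 5x7Gy_14d the count was 0, which allows up to 0.946%. It was not tested what set the mitochondrial share of these barcodes.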

How the results depend on the processing

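No paired analysis was possible because each group is 1 library and no comparison has a test. No share ratio, list median or named gene at 2-fold or more changed sign under the alternatives that could be run, but the balance of higher and lower genes turned in some comparisons. Of the recomputed list medians 526 stayed within the counting interval of the reported value and 78 lay outside it. For named genes these numbers were 1575 and 325. Of shares and counts of genes, 67 stayed within that interval or, for counts, within 1.5 times, and 34 did not. The share of members in 35Gy_7d was 29.1% with the stricter filter and 22.1% as core members (27.2% as reported). In 5x7Gy_7d it was 1.13% with a marker sum of at least 5 and 0.220% as core (1.61%), and in 5x7Gy_14d it was 0.347% and 0.0595% (0.476%). On the log2 scale the share ratio of 35Gy_7d over 5x7Gy_7d was 4.55 with a marker sum of at least 5 and 6.65 as core (4.08), that of 5x7Gy_7d over 0Gy_7d was 2.70 as core (4.76) and that of 5x7Gy_14d over 0Gy_7d was 0.81 as core (3.01). The 35Gy_7d over 5x7Gy_7d comparison had 514 higher genes and 366 lower with median-of-ratios scaling, 425 and 54 at an expected count of 30, and 1643 and 6899 with no filter (877 and 168). Against C1q macrophages in 35Gy_7d there were 222 higher and 166 lower at an expected count of 30, 874 and 4315 with no filter (409 and 400), 463 and 618 with cells weighted equally, and 405 and 903 in core members. Against neutrophils there were 674 higher and 312 lower at 30, 1682 and 5636 with no filter, and 2562 and 763 with cells weighted equally (1129 and 683). In 5x7Gy_7d against C1q macrophages there were 60 higher and 95 lower at 30, and 1722 and 2447 with no filter (223 and 368). The cycling share in 35Gy_7d was 1.74% with a marker sum of at least 5, 1.75% without Scrublet calls, 1.17% thinned to 500 UMIs and 1.16% as core (2.35%). With no filter many genes rest on the floor of 3 counts. The cause of the other shifts was not tested. The core comparisons with 5x7Gy_7d were not run, with 20 cells.

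Depth limits the small libraries: 48 and 7 members in 5x7Gy_14d and 0Gy_7d were not compared by gene, and members of 35Gy_7d had a median of 4922 UMIs, against 2539 in those of 5x7Gy_7d.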
